A study of Drosophila melanogaster with 2 samples.

Results

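The miRNAs encoded within the Hox gene complexes of Drosophila melanogaster are miR-10 and miR-993 of the Antennapedia complex and miR-iab-4 and miR-iab-8 of the bithorax complex. They were taken by the names mir-10, mir-993, mir-iab-4 and mir-iab-8 from the tables of annotated hairpins, which gave 4 hairpins of the 174 listed over both libraries, and all 4 were listed in each library. The study profiled small RNA of the central nervous system (CNS), dissected from w[1118] Iso31 flies, a white-eyed isogenic strain, in 1 library per stage. The adult library came from brains with antennal lobes, taken 3 to 5 days after eclosion. The larval library came from ventral ganglia with optic lobes of wandering larvae of the third instar, without the eye discs. Each library pooled tissue of about 100 animals with males and females in about equal numbers, and all flies were raised at 24 °C. The adult label names the brain alone, so stage and dissected tissue cannot be told apart in any difference below.

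Hox genes encode homeodomain transcription factors that give body segments their identity along the head to tail axis, and in the fly they are split between 2 complexes on 1 chromosome. Each complex also makes miRNAs, short RNAs cut from either arm of a hairpin that repress transcripts pairing with their seed. miR-10 is an ancient miRNA kept beside Hox genes in many animals, and miR-993 is an insect relative of it. miR-iab-4 and miR-iab-8 are made from opposite strands of a single site in the bithorax complex. Both are known to repress Ultrabithorax (Ubx), and miR-iab-8 also represses abdominal-A (abd-A) in the posterior nerve cord. In the fly embryo both are made in abdominal segments.

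The annotation of assembly BDGP6 places all 4 hairpins on chromosome 3R. miR-993 (FBgn0262174, 3R, 6776333 to 6776451, plus strand) spans 119 bases and overlaps an exon of 1 of 2 transcripts of lncRNA:CR42721. It lies between the genes Ama and Dfd, 15384 bases before the Hox gene Deformed (Dfd). miR-10 (FBgn0262424, 3R, 6809506 to 6809582, minus strand) spans 77 bases and lies in an exon of lncRNA:CR42651, between Dfd, 7077 bases away, and Sex combs reduced (Scr), 13537 bases away. The gap between miR-993 and miR-10 is 33054 bases, and they lie on opposite strands with Dfd between them.

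miR-iab-4 (FBgn0262462, plus strand) and miR-iab-8 (FBgn0262290, minus strand) have the same 68 bases as their hairpin, 3R, 16856275 to 16856342. The site lies 26225 bases from abd-A on its lower side and 70869 bases from Abdominal-B (Abd-B) on its upper side. On the plus strand it falls in an exon of 3 of 4 transcripts of lncRNA:iab4. On the minus strand it falls in introns of lncRNA:iab8, a long noncoding RNA of this region, and of MSAmiP. The 5' arm of miR-iab-4 lies opposite the 3' arm of miR-iab-8, with 19 bases in common, and the 3' arm of miR-iab-4 lies opposite the 5' arm of miR-iab-8, with 23 bases in common.

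The adult library held 1665159 reads of annotated hairpins and the larval library 822500. Levels are given as RPM, reads per 1000000 hairpin reads, so that 1 adult read equals 0.601 RPM and 1 larval read equals 1.22 RPM, and a count of 0 allows up to 3 reads. There were no replicates at either stage. Intervals are exact 95% intervals that cover the counting error of reads only, no p-value was computed, and every difference is between these libraries. miR-124, a marker of neurons, stood at 1603 RPM in the adult and 2564 RPM in the larval library. Markers of neighbouring tissues moved with stage: miR-210 of photoreceptors had 17586 RPM in the adult and 99.7 RPM in the larval library. Of the muscle markers, miR-133 had 13002 and 518 RPM, and miR-1 only 141 and 47.4 RPM. The 5 listed of 8 testis hairpins and the 2 ovary hairpins summed to 22.2 and 24.0 RPM in the adult against 135 and 4.86 RPM in the larval library. Their part in the results was not tested.

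The 4 Hox complex miRNAs together had 20707 reads in the adult library, 1.24% of the total (1.23 to 1.26), against 29552 reads in the larval library, 3.59% (3.55 to 3.63). miR-10 supplied most of them, with 84.3% of the group's adult reads (83.8 to 84.8) and 86.3% of its larval reads (85.9 to 86.7). The order of levels was the same in each library: miR-10, then miR-993, then miR-iab-4, then miR-iab-8. In the larval library no neighbours in this order had overlapping intervals, and in the adult library miR-iab-4 and miR-iab-8 could not be ordered, with 2 reads and 1 read.

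**Figure D1:**
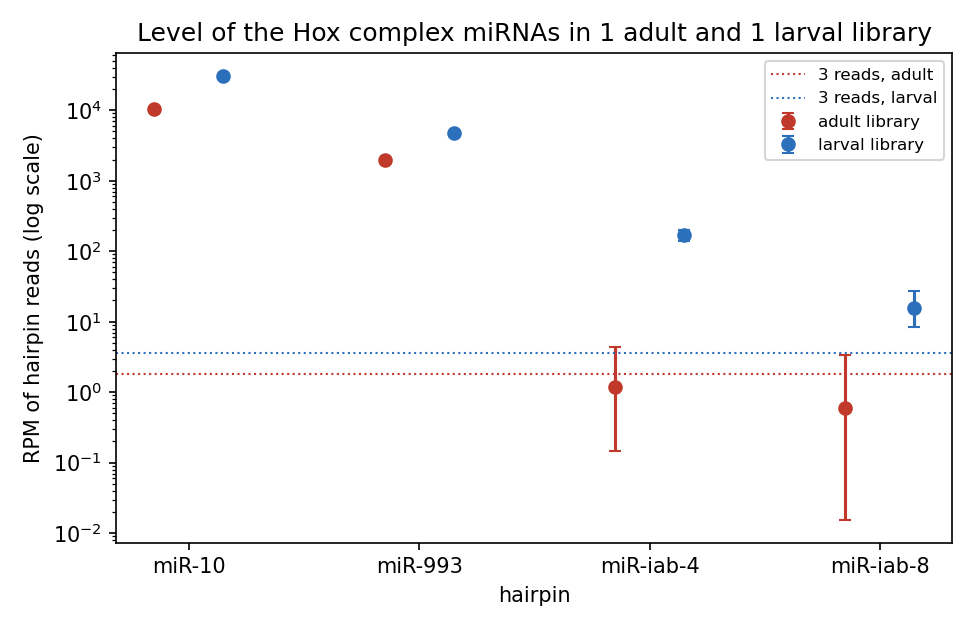
Level of each Hox complex miRNA in RPM of hairpin reads, on a log scale, in the adult (red) and larval (blue) library, with exact Poisson 95% intervals that cover counting error only; dotted lines mark 3 reads. All 4 stand lower in the adult library, and the adult points of miR-iab-4 and miR-iab-8, of 2 reads and 1 read, lie under the line of 3 reads.

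A hairpin was compared between the libraries when it had at least 20 reads over both and at least 10 RPM in either, which 114 hairpins met. It was called lower or higher when the adult over larval ratio was at least 2-fold from 1 and its interval excluded 1. miR-10, miR-993 and miR-iab-4 passed the floor and all 3 were called lower in the adult library, while miR-iab-8 was under the floor. Over all 114 hairpins 28 were called lower in the adult library, 24.6%, and 46 were called higher, 40.4%. The median log2 ratio was -1.56 over the 3 miRNAs and 0.47 over the 114 hairpins. When the scaling total left out the hairpins that were among the 10 most abundant at either stage, miR-10 among them, every log2 ratio shifted by -0.52. Then 41 hairpins were lower and 40 higher, with the same 3 Hox complex miRNAs lower.

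miR-10, the most abundant of the group, had 17448 reads or 10478 RPM in the adult library (10323 to 10635), against 25492 reads or 30993 RPM in the larval library (30614 to 31376). It ranked 18th of all hairpins among adult reads and 8th among larval reads. The adult level was 2.96-fold lower (2.90 to 3.02), a log2 ratio of -1.56, or -2.03 relative to the median of the compared hairpins. That ratio was the 22nd lowest of the 114. miR-10 was thus lower in the adult library and still among its abundant miRNAs, at 1.05% of all reads.

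miR-993 had 3256 reads or 1955 RPM in the adult library (1889 to 2024), against 3909 reads or 4753 RPM in the larval library (4605 to 4904). It was 2.43-fold lower in the adult library (2.32 to 2.55), a log2 ratio of -1.28. Its rank among all hairpins was 36th by adult reads and 20th by larval reads, and its ratio was the 27th lowest. Both miRNAs of the Antennapedia complex therefore had adult over larval ratios between 0.332 and 0.431, by the outer ends of their intervals.

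The ratios of these neighbours were close and not equal. miR-10 had 5.36 reads for each read of miR-993 in the adult library (5.16 to 5.56), against 6.52 in the larval library (6.31 to 6.75). The adult over larval ratio of miR-993 was 1.22 times that of miR-10 (1.16 to 1.28), a difference beyond counting error that has no replicate check.

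miR-iab-4 had 2 reads or 1.2 RPM in the adult library (0.145 to 4.34), against 138 reads or 168 RPM in the larval library (141 to 198). The ratio of 140-fold lower has an interval of 37.9 to 1165, and only the log2 ratio of 1 other hairpin of the 114 was below its -6.81. The adult count is under the 3 reads that a count of 0 allows. In the larval library miR-iab-4 ranked 65th of all hairpins, at 0.0168% of reads, a small part of the reads of this bulk tissue. Its level in single regions or cells of the CNS was not measured.

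miR-iab-8, read from the other strand of that site, had 1 read or 0.601 RPM in the adult library (0.0152 to 3.35), against 13 reads or 15.8 RPM in the larval library (8.42 to 27.0). With no floor its ratio of 26.3-fold lower (3.95 to 1118) would be called, as would those of 31 of the 174 hairpins, 17.8%. All 4 Hox complex miRNAs were then lower. In the larval library miR-iab-4 had 10.6 reads for each read of miR-iab-8 (6.01 to 20.4), by all hairpin reads. Mature reads alone were 135 for miR-iab-4 and 4 for miR-iab-8 in the larval library, and miR-iab-8 had 0 in the adult library. In the adult library the counts of 2 and 1 gave a ratio of 2 with an interval of 0.104 to 118, which shows no order.

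The bithorax miRNA miR-iab-4 differed between the libraries by more than the Antennapedia miRNAs did. Its adult over larval ratio was 47.2-fold below that of miR-10 (12.8 to 394) and 57.5-fold below that of miR-993 (15.6 to 480). By all hairpin reads, most of which lay outside its mature arms, the ratio of miR-iab-8 was 8.90-fold below that of miR-10 (1.34 to 378). Mature reads alone, 0 adult and 4 larval, showed no such difference. Their ratio had an interval up to 0.761, which holds the 0.344 of miR-10 by mature reads. Between miR-iab-8 and miR-iab-4 no difference could be seen at this depth, since the interval of the quotient of their ratios ran from 0.0836 to 106. The adult label names the brain alone. A difference in dissected tissue, fewer cells with these miRNAs and less of them in each cell cannot be told apart in these bulk libraries.

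**Figure D2:**
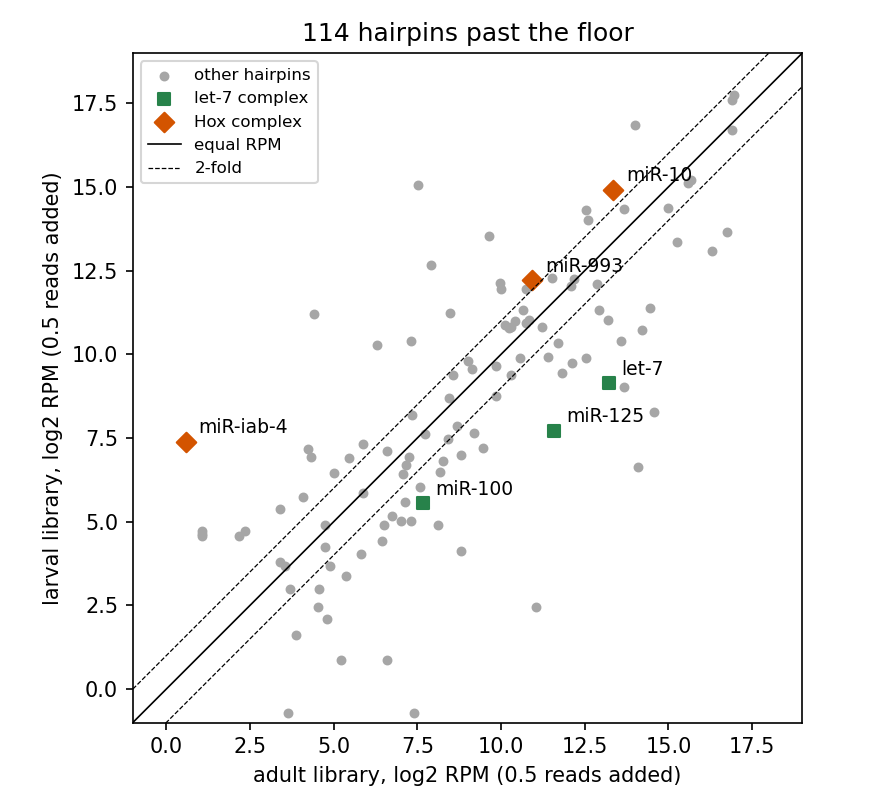
Level of the 114 compared hairpins as log2 RPM with 0.5 reads added, adult library on the horizontal and larval library on the vertical axis; the solid line marks equal levels and the dashed lines a 2-fold difference. The 3 Hox complex miRNAs past the floor (orange diamonds) lie above the upper dashed line and the 3 hairpins of the let-7 complex (green squares) below the lower one, with miR-iab-4 far from the line at log2 -6.81.

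In the authors' deposited table, the fold changes are larval over adult: 2.96 for miR-10, 2.43 for miR-993, 140 for miR-iab-4 and 26.3 for miR-iab-8. Their Bonferroni-corrected p-value of Kal's Z-test in the authors' deposited table was listed as 0 for the first 3 and as 0.0303 for miR-iab-8. That test compares proportions of reads in these 2 libraries and takes no account of the spread between animals or preparations.

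miR-100 is another fly miRNA of the miR-10 sequence family. But it lies in the let-7 complex on chromosome 2L with miR-125 and let-7, a transcript that the hormone ecdysone switches on at metamorphosis. It had 340 reads or 204 RPM in the adult library, against 38 reads or 46.2 RPM in the larval library, 4.42-fold higher in the adult (3.15 to 6.35). The adult over larval ratio of miR-10 was 13.1-fold below that of miR-100 (9.33 to 18.8), and that of miR-993 was 10.7-fold below it (7.64 to 15.5). By all hairpin reads the relatives thus differed in opposite directions between these libraries. For miR-100 the rise lay in its 5' arm, 6.42-fold higher in the adult (4.24 to 10.2). Its 3' arm, with 24 adult and 14 larval reads, had an adult over larval ratio of 0.847 (0.421 to 1.77). let-7 stood at 9519 RPM in the adult library, just under miR-10, and at 562 RPM in the larval library, far under it.

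Likeness to other hairpins was measured as the distance between their log2 RPM over the 2 libraries, among the 114 compared. Nearest to miR-10 were miR-11, at a distance of 0.67 and 1.58-fold lower in the adult library (1.55 to 1.61), and miR-305, at 1.01 and 3.39-fold lower (3.31 to 3.48). Nearest to miR-993 were miR-263a, at 0.32 and 2.28-fold lower (2.17 to 2.40), and miR-31a, at 0.60 and 1.70-fold lower (1.63 to 1.77). miR-iab-4 had no close match: the nearest were miR-6-1 and miR-6-3 at 2.73 and 2.80, copies that share reads and had 3 adult reads each against 21 and 20 larval reads.

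The main arm of miR-10 and of miR-993 was the same at both stages. miR-10 came mainly from its 5' arm, with 14494 reads on the 5' and 2897 on the 3' arm in the adult library, against 21757 and 3683 in the larval library. The 5' share of mature reads was 83.3% in the adult (82.8 to 83.9) and 85.5% in the larval library (85.1 to 86.0). The intervals do not overlap, but the difference of -2.18 percentage points was under the 10 points set for a call.

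miR-993 used the opposite arm, with 2978 reads on the 3' and 261 on the 5' arm in the adult library, against 3570 and 330 in the larval library. Its 5' share was 8.06% in the adult (7.14 to 9.05) and 8.46% in the larval library (7.61 to 9.38), and these intervals overlap. Among exact reads alone its 5' share was 2.61% in the adult (2.0 to 3.35) and 4.25% in the larval library (3.57 to 5.03), lower at both stages and with intervals that do not overlap, though the difference was under 10 points. By the rule for arms, 20 mature reads in each library, a 10-point difference and intervals that do not overlap, neither miR-10 nor miR-993 was called. Among all 86 hairpins that met the minimum, the 5' share was called lower in the adult library in 11.6% and higher in 8.14%. For miR-100 the 5' share was 92.9% in the adult (89.6 to 95.4) against 63.2% in the larval library (46.0 to 78.2).

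Every mature read of miR-iab-4 fell on the 5' arm, 2 of 2 in the adult and 135 of 135 in the larval library, where the lower end of the interval was 97.3%. No read was listed for its 3' arm at either stage, and likewise the 4 mature reads of miR-iab-8, all larval, fell on its 5' arm. BDGP6 annotates a 3' arm of both hairpins. No source used here says whether the authors' annotation did, and without it no read could be listed there. All mature reads of the 4 hairpins, 17391, 3239, 2 and 0 in the adult and 25440, 3900, 135 and 4 in the larval library, were also in the columns for reads that fit 1 hairpin only. No source used here says whether the authors' counting kept to the strand. Since the hairpins of miR-iab-4 and miR-iab-8 lie on opposite strands of the same bases, a read counted without strand would fit both. Their mature reads were all listed as fitting 1 hairpin only. The reads outside the mature arms have no such column, so their split between the hairpins is uncertain. How the counting treated strand was not tested.

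Reads of the hairpin outside both mature arms were few for miR-10, 57 adult and 52 larval reads, 0.327% (0.248 to 0.423) and 0.204% (0.152 to 0.267) of its reads. miR-993 had 17 and 9 such reads, 0.522% (0.304 to 0.835) and 0.230% (0.105 to 0.437). The median over the 89 hairpins with at least 20 reads in each library was 1.37% at the adult and 0.783% at the larval stage, so both miRNAs lay under it. miR-iab-4 had 3 other reads among its 138 larval reads, 2.17% (0.451 to 6.22), and none among its 2 adult reads. miR-iab-8 was counted mainly outside its mature arms: its single adult read and 9 of its 13 larval reads were other reads, 69.2% (38.6 to 90.9) in the larval library. None of its 4 larval mature reads equalled the annotated form. BDGP6 annotates a 3' arm of miR-iab-8, but no source used here says whether the authors' annotation did, and what these 9 reads are was not tested.

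**Figure D3:**
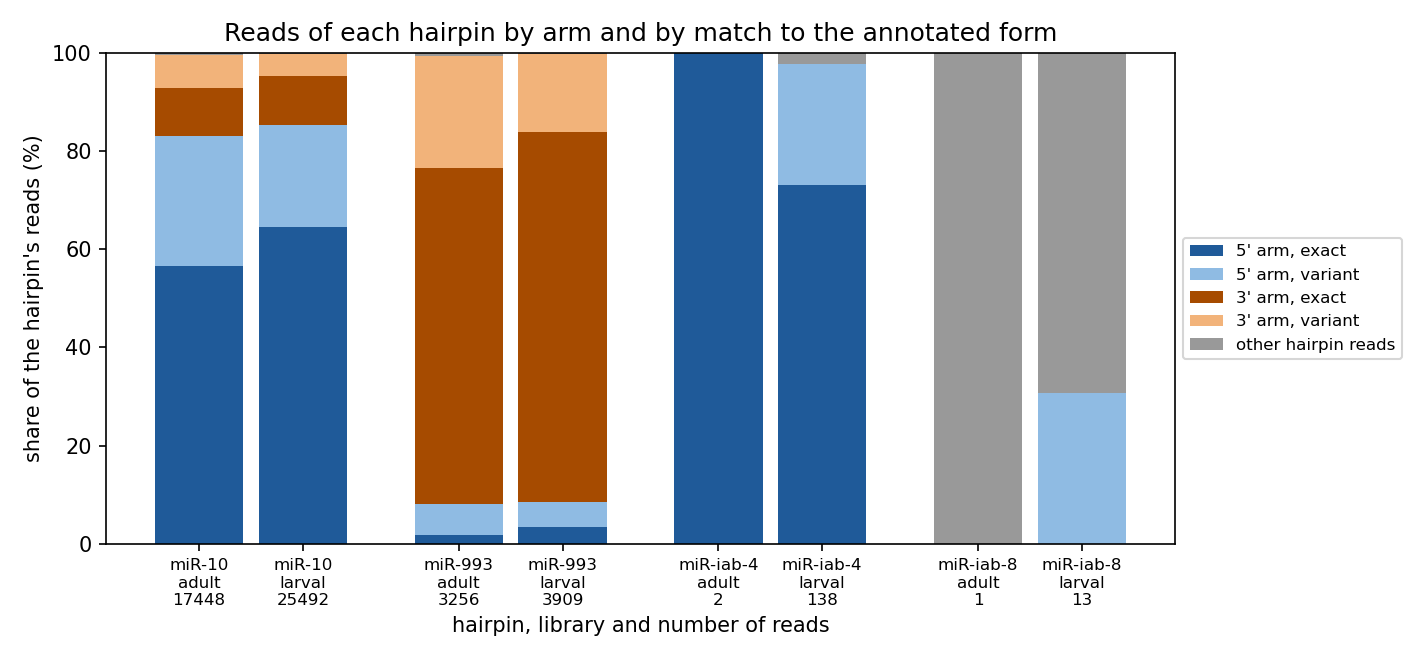
Share of each hairpin's reads that fell on the 5' arm (blue) or the 3' arm (orange), dark for reads equal to the annotated form and light for variants, and outside the arms (grey), in percent; the number of reads is under each bar. miR-10 is mainly 5' and miR-993 mainly 3' at both stages, miR-iab-4 has no reads listed for a 3' arm, and the bars of the adult miR-iab-4 and miR-iab-8 rest on 2 reads and 1 read.

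Reads equal to the annotated mature form, called exact, made up a smaller share of the adult than of the larval reads on all 4 arms of miR-10 and miR-993. The other reads of an arm are variants, and the tables do not say in which bases or at which end they differ. On the 5' arm of miR-10, its main product, 9862 of 14494 adult reads were exact, 68.0% (67.3 to 68.8), against 16429 of 21757 larval reads, 75.5% (74.9 to 76.1). On its 3' arm 58.5% of adult reads were exact (56.7 to 60.3), against 69.2% of larval reads (67.6 to 70.6). None of these intervals overlap between stages.

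The main 3' product of miR-993 had 2235 exact of 2978 adult reads, 75.1% (73.5 to 76.6), against 2949 of 3570 larval reads, 82.6% (81.3 to 83.8). Its minor 5' arm had the lowest exact share of the 4 arms in each library, 60 of 261 adult reads or 23.0% (18.0 to 28.6), against 131 of 330 larval reads or 39.7% (34.4 to 45.2). The differences, adult minus larval, were -7.47 points for miR-10-5p, -10.6 for miR-10-3p, -16.7 for miR-993-5p and -7.55 for miR-993-3p. With a call at 10 points and intervals that do not overlap, the minor arms miR-10-3p and miR-993-5p were called lower in the adult library, and at 5 points all 4 were.

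These counts stand against a background in which a smaller exact share in the adult library was common. Of the 119 arms with at least 20 reads in each library, 19.3% were called lower at 10 points and 26.9% at 5 points, and 5.88% were called higher at 10 points. The difference was below 0 in 76 of the 119 arms, 63.9%, with a median of -2.04 points and quartiles of -9.64 and 1.8. Among the 39 arms with at least 1000 reads in each library, a depth that miR-993-5p did not reach, it was below 0 in 30, with a median of -2.54 points. The median of the 4 Hox complex arms was -9.10 points. Their ranks from the lowest difference were 12th for miR-993-5p, 27th for miR-10-3p, 35th for miR-993-3p and 36th for miR-10-5p. Arms of 1 hairpin share their library and counting, so the 4 are not independent.

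**Figure D4:**
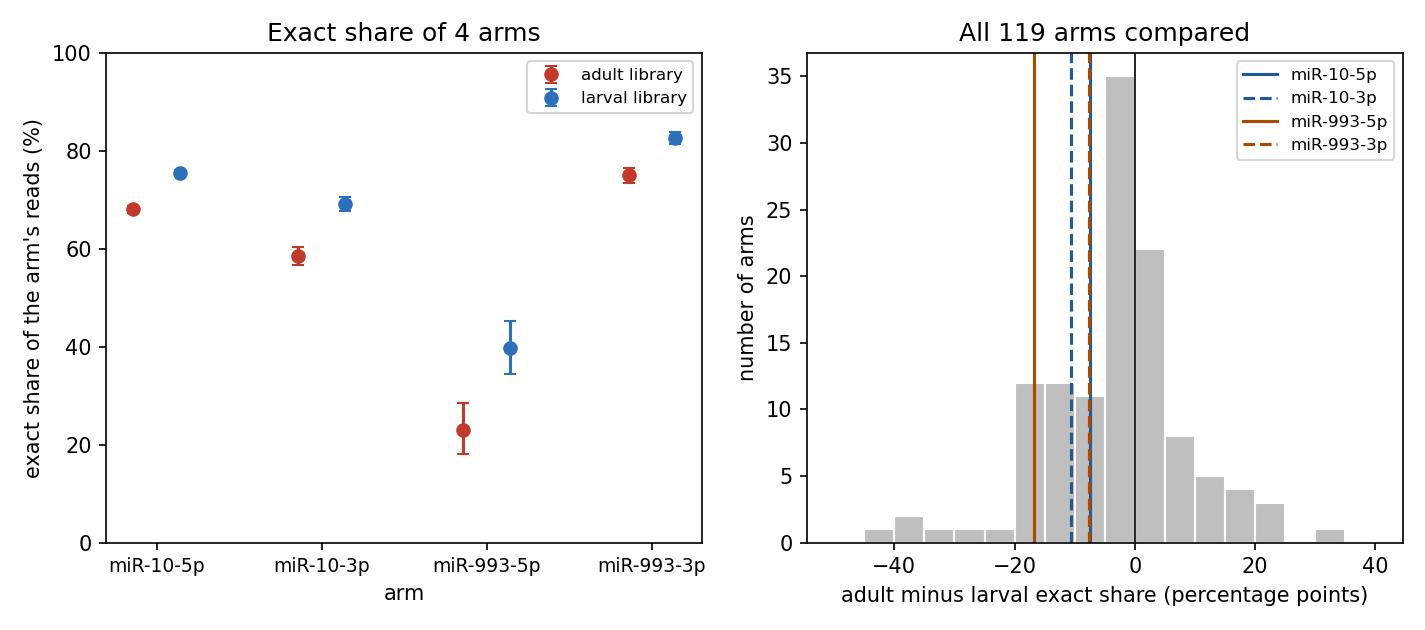
Left, share of reads equal to the annotated form on each arm of miR-10 and miR-993, in percent with exact 95% intervals, in the adult (red) and larval (blue) library. Right, adult minus larval difference in percentage points over all 119 arms compared, with the 4 arms as lines between -16.7 and -7.47; the lines of miR-10-5p and miR-993-3p nearly coincide.

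The difference in level was accordingly larger for exact than for variant reads of the same arm. Exact reads of miR-10-5p stood at 5923 RPM in the adult and 19974 RPM in the larval library, 3.37-fold lower in the adult (3.29 to 3.46), while its variants stood at 2782 and 6478 RPM, 2.33-fold lower (2.24 to 2.42). For miR-10-3p the exact reads were 3.04-fold lower (2.86 to 3.24) and the variants 1.91-fold lower (1.76 to 2.08). Variants were lower in the adult library too, so all kinds of miR-10 read differed in the same direction.

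For miR-993-3p the exact reads were 2.67-fold lower in the adult library (2.53 to 2.82) and the variants 1.69-fold lower (1.52 to 1.88). For miR-993-5p the exact reads were 4.42-fold lower (3.23 to 6.10) and the variants 2.0-fold lower (1.64 to 2.45), with 201 adult and 199 larval variant reads. Of miR-iab-4 both adult reads were exact, against 101 of 135 larval reads, 74.8% (66.6 to 81.9), and the adult interval from 15.8% to 100% shows no difference. Its 34 larval variant reads had no adult counterpart, which puts the variants 22.9-fold lower in the adult library when its 0 is replaced by 3 reads. The lower end of the exact interval, which also covers the counting error of the larval reads, was 17.7-fold.

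**Figure D5:**
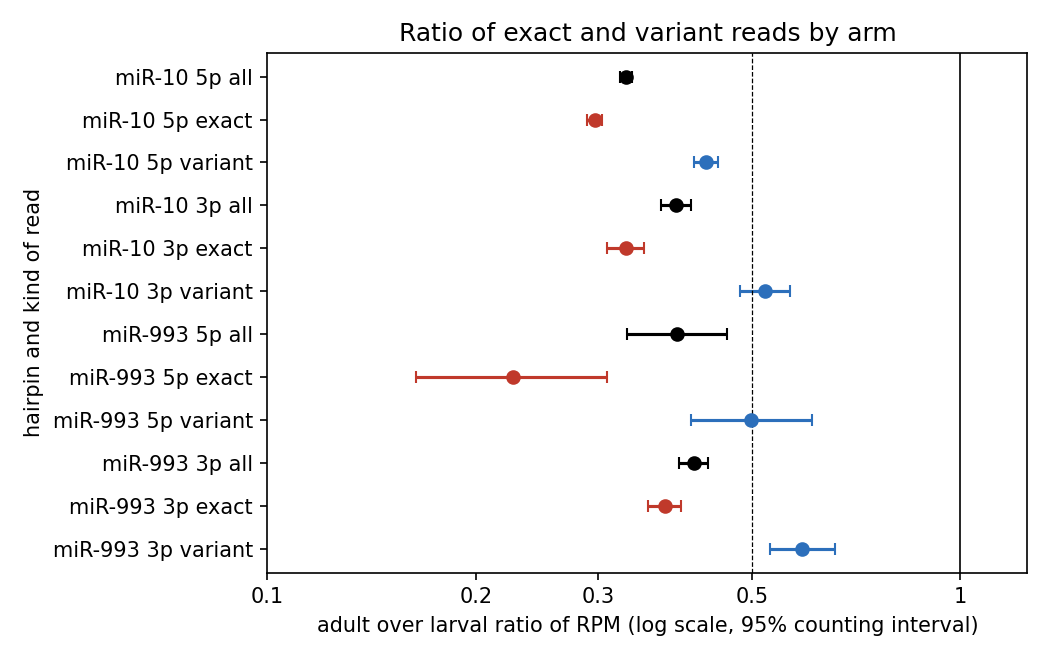
Adult over larval ratio of RPM for all (black), exact (red) and variant (blue) reads of each arm of miR-10 and miR-993, on a log scale with exact 95% counting intervals; the dashed line marks a ratio of 0.5 and the solid line 1. Every ratio lies below 1, and on each arm the exact reads lie further left than the variants.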

How the data were processed

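Read counts for each annotated hairpin of 1 adult and 1 larval library are as the authors deposited them, divided into mature 5', mature 3' and other reads, with exact and unique columns, per the file headers. The submitters' processing notes name CASAVA 1.8 and build dm3; aligner, counter and annotation release: not given in the sources used here. RPM values, a signed fold change (score) and p-values of Kal's Z-test are from the authors' deposited table, and its RPM equalled those computed here from the counts. Read counts were analysed in Python 3.11.15 with scipy 1.17.1: Clopper-Pearson intervals for shares, conditional binomial intervals for ratios, Poisson intervals for levels, conditional odds ratios between hairpins, and 0.5 reads added for log2 ratios. The rules were tested on simulated counts with counting error only, in which the most abundant hairpins were left unchanged. Those tests do not cover spread between libraries or change in the most abundant hairpins. Intervals cover counting error only, since each stage has 1 library. Reads carry no molecular identifiers, so copies of 1 molecule cannot be told from separate molecules. Alternatives used edgeR 4.0.16 (TMM) and DESeq2 1.42.0 (size factors) for scaling only. Named hairpins are the 4 members, the let-7 complex, the 2 nearest hairpins to each member past the floor, and markers of neurons and neighbouring tissues; shared seeds were not looked up, as no sequences were used here. Members and lists were chosen with earlier results of these data known. Positions come from Ensembl release BDGP6, matched by name, and no dm3 position was combined with them. Candidate hairpin lists were not used.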

Additional observations from a re-analysis of the deposited data

How the results depend on the processing

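The count of Hox complex miRNAs called lower in the adult library was 3 with TMM factors, DESeq2 size factors, a scaling total that leaves out the hairpins among the 10 most abundant at either stage, mature, exact or unique reads only, a floor of 50 reads and a fold of 1.5. It was 4 with no floor, where 31 of all 174 hairpins were called lower. In the settings with 3, the hairpins called lower over the whole table were 28 of 114 with TMM or DESeq2 factors. They were 41 of 114 with that scaling total and 37 of 114 with a fold of 1.5. With mature, exact or unique reads they were 29 of 112, 32 of 99 and 29 of 108, and with the floor of 50 reads 23 of 101. With a fold of 3 the count of Hox complex miRNAs was 1, miR-iab-4, because miR-10 and miR-993 lie under that fold. Of all 114 hairpins 18.4% were then called lower. Over the scaling and read alternatives miR-10 was 2.91-fold to 4.24-fold, miR-993 2.40-fold to 3.49-fold and miR-iab-4 99.6-fold to 200-fold lower, the largest with that scaling total. miR-10, 8th among larval reads, is itself left out of that total. DESeq2 size factors shifted all log2 ratios by -0.15. miR-iab-8 had no exact reads, and with mature reads only it had 0 adult and 4 larval reads. The count of changed arm shares was 0 under each alternative run, and the share over all hairpins was computed for the main rule only. The count of arms with a different exact share was 2 with a minimum of 1 read, among 5 arms of the group. For that minimum the share over all arms was not computed. With a call at 5 points in place of 10 the count was 4, since the other 2 arms differ by -7.47 and -7.55 points. Of all 119 arms 26.9% were then called lower. No paired analysis was possible because each stage has 1 library. Depth limits the adult levels of miR-iab-4 and miR-iab-8, which rest on 2 reads and 1 read.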
